A study of Solanum lycopersicum with 48 samples.

Results

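ACC oxidase carries out the last step of ethylene synthesis in plants, and tomato has a small family of genes for it. The 5 family members described here were ACO1 (Solyc07g049530), ACO3 (Solyc07g049550), ACO4 (Solyc02g081190), ACO5 (Solyc07g026650) and ACO6 (Solyc02g036350). They were chosen by locus number, with earlier results of these data known, and all 5 were among the 29898 genes of the deposited table. Each name was also found in RefSeq (assembly SLM_r2.1) on the chromosome that its locus number gives, which places ACO1, ACO3 and ACO5 on chromosome 7 and ACO4 and ACO6 on chromosome 2. RefSeq lists ACO3 under the symbol EFE with ACO3 and ACO4 as synonyms, and EFE is also a synonym of ACO1 there. The names ACO3 and ACO4 each match 2 RefSeq entries, 1 of them on the chromosome of the locus number. The match thus rests on name and chromosome together. No genome build was given for the files, so no coordinates are reported.

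RNA of whole roots or leaves was sequenced from the tomato cultivars Guizhen No.1 and Guozhen No.1, raised in water culture. Nitrogen was supplied at 9 mM in the control groups, called normal nitrogen here, and at 1 mM in the low nitrogen groups. Plants of all groups shared the same Hoagland medium and growth chamber, and samples were taken at day 1 and day 7. Every combination of cultivar, organ, day and nitrogen level had 3 libraries, which gives 16 groups and 48 libraries. The labels name neither the event from which days were counted nor the age of the plants, and they do not say whether the 3 libraries came from separate plants, so p-values measure the spread between these libraries, which may be technical.

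Ethylene is made from S-adenosylmethionine, which ACC synthase turns into the precursor ACC and ACC oxidase then turns into the gas. Receptors of the ETR family keep the kinase CTR1 active until they bind ethylene. Binding ends this, which frees EIN2 and the EIL transcription factors to act. ACO1 is best known as the ACC oxidase of ripening tomato fruit and is also expressed in senescing and wounded leaves, while ACO4 is likewise known from ripening fruit. Less is known of ACO5 and ACO6.

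Levels are given in FPKM, a read density that corrects for gene length and library size (fragments per kilobase, relative to all mapped fragments), so that levels of different genes can be set side by side. Differences are given as log2(FPKM + 1), with a limma standard error (SE) and a p-value adjusted over all genes tested by the Benjamini-Hochberg method, and a gene was called at an adjusted p below 0.05. The added 1 makes a difference smaller than the fold in FPKM where the lower level is near or below 1. The smallest p of an exact permutation test of 3 libraries against 3 is 0.1, so limma, which shares the spread over groups, was used throughout.

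In sum, the marker genes of each organ stood higher in the libraries labelled with that organ. Between 16983 and 18640 genes per library reached 1 FPKM, and the estimated depth lay between 0.755 and 2.14 times that of the median library. Read numbers per library are not given in the sources used here, so depth is relative. The summed level of 6 leaf photosynthesis genes (Rubisco small subunits and chlorophyll a/b binding proteins) lay between 3529 and 74447 FPKM in the 24 leaf libraries and between 12.4 and 71.2 FPKM in the 24 root libraries. The summed level of 3 root genes lay between 11.1 and 170 FPKM in root and between 0 and 0.225 FPKM in leaf. Of these, the regulator FER was read in all 24 root libraries, at 11.1 to 91.4 FPKM. The iron transporter IRT1 was listed at 0 in 5 of them and the nitrate transporter Solyc11g069750 in 2. In whole organs, fewer cells of a type and less RNA per cell cannot be told apart.

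Each ACC oxidase had its own pattern over organ and day, and calls between organs and days were many while calls between nitrogen levels or cultivars were few. ACO1 and ACO6 were the leaf members, but ACO1 was high in leaf only at day 1, whereas ACO6 was high at both days. ACO4 was read in both organs and was higher in root. ACO3 and ACO5 were root genes of day 1, and ACO5 was nearly unread in leaf.

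**Figure D1:**
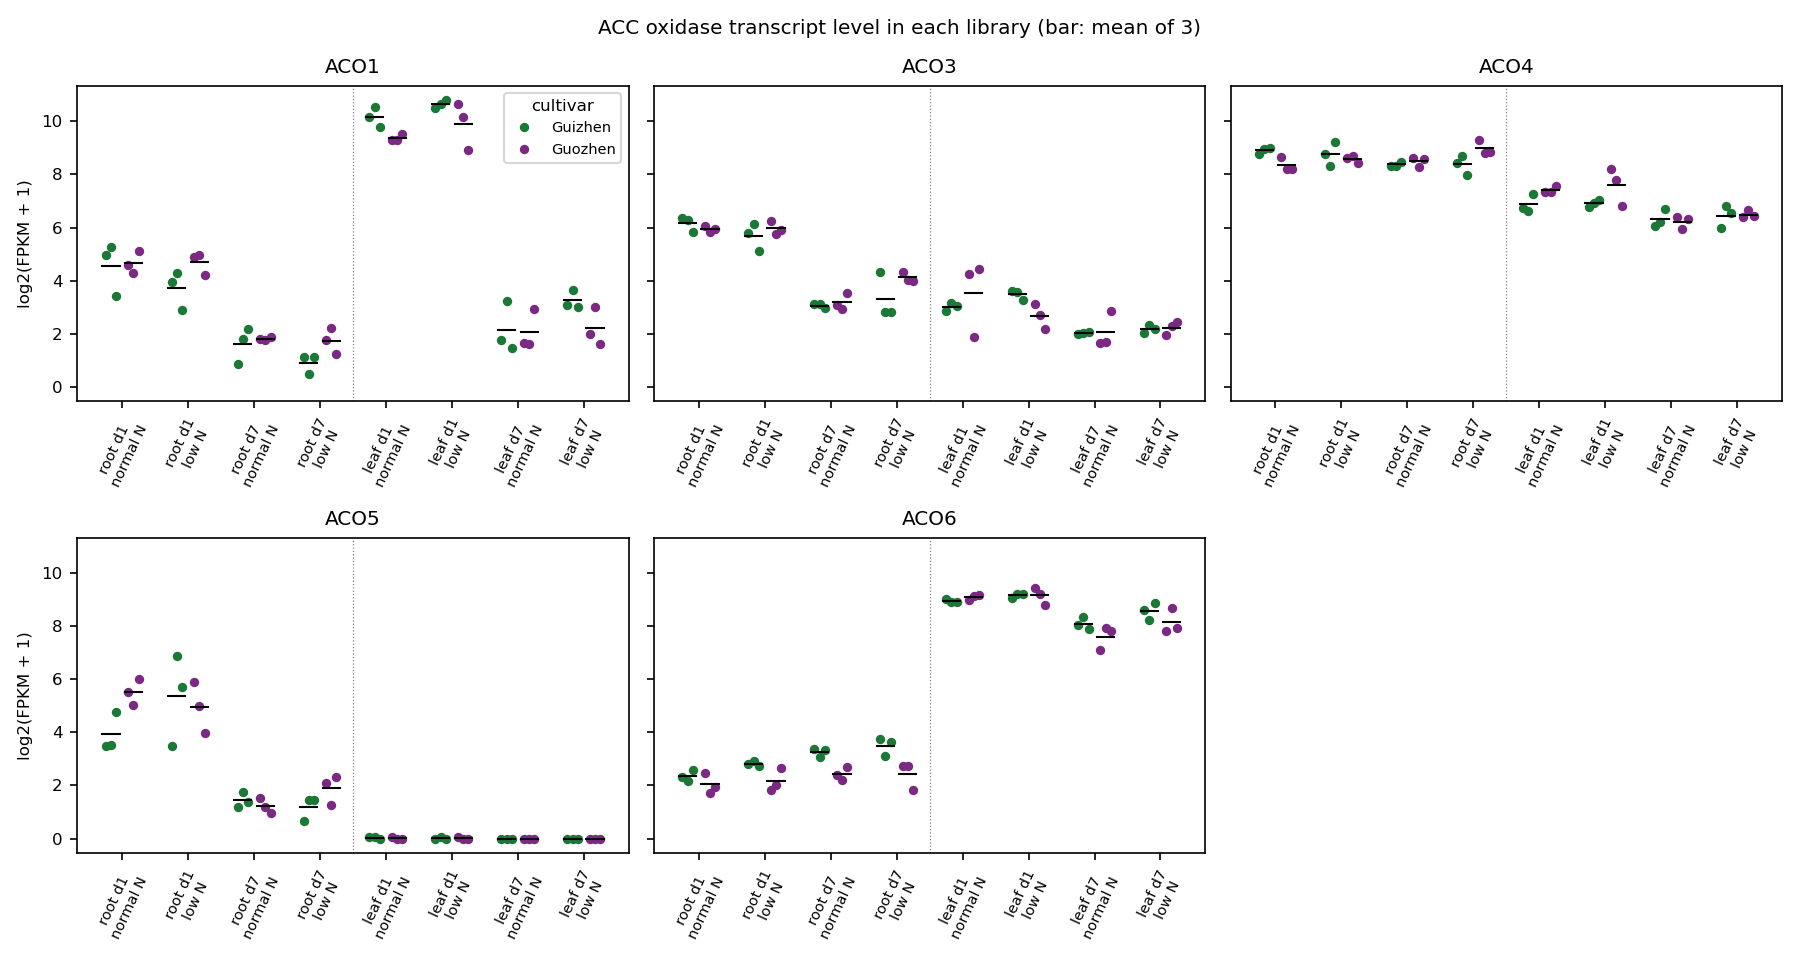
Each panel shows 1 gene, with log2(FPKM + 1) on the vertical axis and the 8 combinations of organ, day (d1, d7) and nitrogen on the horizontal axis. Points are single libraries, green for Guizhen and purple for Guozhen, and bars are means of 3. The dotted line parts root from leaf. ACO1 stands between 484 and 1769 FPKM in leaf at day 1 and at most at 11.7 FPKM in leaf at day 7.

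ACO1 gave the largest day contrast of the 5 genes. In Guizhen leaves of day 1 it stood at 1142, 1479 and 886 FPKM at normal nitrogen and at 1464, 1597 and 1769 FPKM at low nitrogen. In Guozhen leaves of day 1 it stood at 635, 620 and 739 FPKM at normal nitrogen and at 1619, 1136 and 484 FPKM at low nitrogen. All 12 of these libraries lay above every other library of the study, and the low nitrogen trio of Guozhen spread more widely than the rest. By day 7 the leaf values of ACO1 had come down to 2.45, 8.32 and 1.75 FPKM in Guizhen at normal nitrogen, with 7.51, 11.7 and 7.13 FPKM at low nitrogen. In Guozhen leaves of day 7 they were 2.17, 2.07 and 6.63 FPKM at normal nitrogen and 3.01, 7.13 and 2.04 FPKM at low nitrogen. No day 7 leaf library came near a day 1 leaf library.

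The fall of ACO1 in leaf was of similar size in both cultivars and at both nitrogen levels. In Guizhen it fell by 8.01 ± 0.47 (SE) on the log2 scale at normal nitrogen (limma, adjusted p = 1.28e-10) and by 7.39 ± 0.47 at low nitrogen (adjusted p = 2.81e-10). In Guozhen it fell by 7.30 ± 0.47 at normal nitrogen (limma, adjusted p = 5.78e-10) and by 7.70 ± 0.47 at low nitrogen (adjusted p = 2.17e-10). These falls held ranks 8, 27, 14 and 18 by size, in the same order, among the 19815 genes tested in leaf. In root ACO1 was a minor member, with 6.48 to 37.4 FPKM at day 1 and 0.391 to 3.61 FPKM at day 7. It was lower at day 7 there as well, with differences of -2.93 ± 0.44 and -2.80 ± 0.44 in Guizhen at normal and low nitrogen and of -2.86 ± 0.44 and -2.96 ± 0.44 in Guozhen, each called by limma with an adjusted p between 1.55e-05 and 4.48e-05.

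The leaf photosynthesis genes moved the other way between the same leaf libraries. Their summed level lay between 3529 and 17172 FPKM at day 1 (median 9918) and between 49154 and 74447 FPKM at day 7 (median 61120). All 6 genes of that list were read in every library, with none listed at 0. Within the Guozhen leaves of day 1 at low nitrogen, the library with the lowest ACO1 (484 FPKM) had the highest sum (14282 FPKM), and the library with the highest ACO1 (1619 FPKM) had the lowest sum (3529 FPKM). Guizhen leaves of day 1 at low nitrogen also ran opposite, but in Guozhen leaves of day 1 at normal nitrogen the lowest ACO1 (620 FPKM) went with the lowest sum (7993 FPKM). The part of leaf stage or of leaf cell make-up in the fall of ACO1 was not tested.

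**Figure D2:**
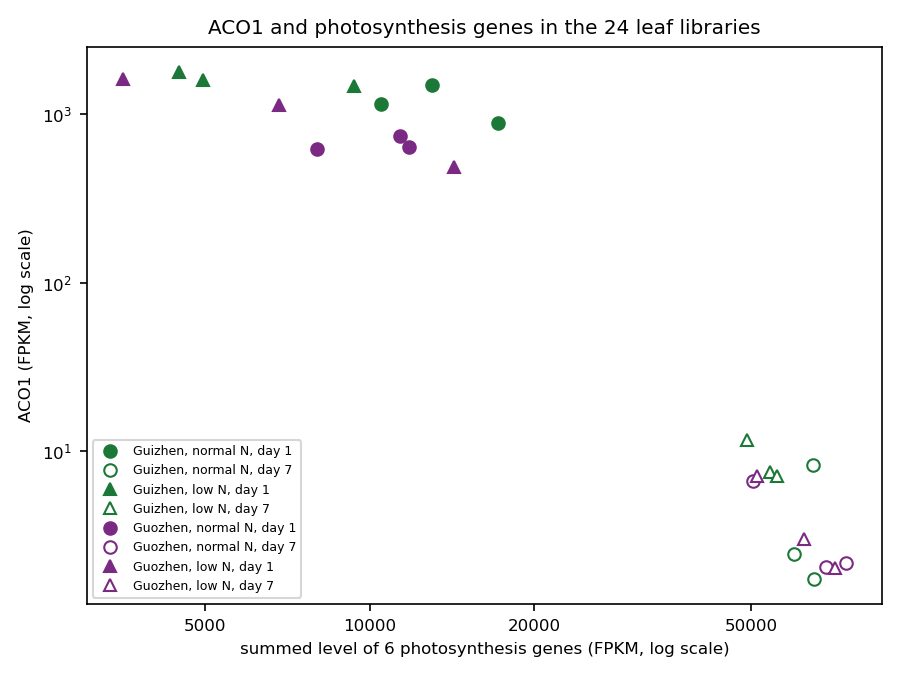
ACO1 level (vertical axis, FPKM, log scale) against the summed level of 6 photosynthesis genes (horizontal axis, FPKM, log scale) in the 24 leaf libraries. Filled symbols are day 1 and open symbols day 7, circles are normal and triangles low nitrogen, green is Guizhen and purple Guozhen. The days form separate clouds, with sums up to 17172 FPKM at day 1 and from 49154 FPKM at day 7, so no correlation was computed.

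ACO6 was high in leaf at both days. Its leaf levels lay between 446 and 697 FPKM at day 1 and between 135 and 461 FPKM at day 7, against 2.26 to 12.4 FPKM in any root library. At normal nitrogen it went from 520, 480 and 472 FPKM at day 1 to 261, 326 and 236 FPKM at day 7 in Guizhen leaves. In Guozhen leaves at normal nitrogen it went from 498, 554 and 574 FPKM to 135, 241 and 222 FPKM. Day 7 lay below day 1 without overlap in both cultivars.

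The fall of ACO6 in leaf was far smaller than that of ACO1. It came to -1.48 ± 0.24 at normal nitrogen (limma, adjusted p = 3.52e-05) and -1.02 ± 0.24 at low nitrogen (adjusted p = 0.00126) in Guozhen. In Guizhen it came to -0.85 ± 0.24 at normal nitrogen (limma, adjusted p = 0.00533) and -0.60 ± 0.24 at low nitrogen (adjusted p = 0.0388). Median-of-ratios scaling, which moved the median of all genes by 0.13 to 0.38 in the leaf day comparisons, ended both Guizhen calls, at -0.51 (limma, adjusted p = 0.0690) and -0.45 (adjusted p = 0.105). The low nitrogen call of Guizhen also ended without any 1 of the 3 day 1 libraries or without day 7 replicate 1 or 2, with limma adjusted p between 0.0531 and 0.178. With no filter on low values it was lost as well (limma, adjusted p = 0.0573). In root, at much lower levels, ACO6 rose in Guizhen by 0.90 ± 0.26 at normal nitrogen (limma, adjusted p = 0.00863). At low nitrogen it rose there by 0.67 ± 0.26 (limma, adjusted p = 0.0446), a call lost without any 1 of 5 of the 6 libraries. That call was also lost with a pseudocount of 0.1 (limma, adjusted p = 0.066) and with no filter on low values (adjusted p = 0.065). In Guozhen root its day difference was 0.40 ± 0.26 at normal nitrogen and 0.26 ± 0.26 at low nitrogen, neither called by limma (adjusted p = 0.212 and 0.416).

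ACO4 was the most even member. It was read at 255 to 635 FPKM in root and at 60.6 to 291 FPKM in leaf, and root was the higher organ in each of the 8 comparisons, by 0.94 to 2.49 on the log2 scale. With only the compared libraries in the fit, the day 1 low nitrogen difference in Guozhen was not called (0.98, limma adjusted p = 0.0548). Between days its root level changed little. Guizhen root at normal nitrogen went from 441, 498 and 512 FPKM at day 1 to 320, 322 and 354 FPKM at day 7, a fall of -0.54 ± 0.21 (limma, adjusted p = 0.0436). That call ended when any 1 of the 6 libraries was left out (adjusted p between 0.0547 and 0.111) or with no filter on low values (0.0656). The other 3 root day differences of ACO4 lay between -0.39 and 0.40 and were not called by limma. In Guizhen at low nitrogen the difference was called without day 1 replicate 2 (-0.61, limma adjusted p = 0.0293), and in Guozhen at low nitrogen it was called under median-of-ratios scaling (0.50, adjusted p = 0.0456).

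In leaf ACO4 fell between the days in Guozhen, by 1.19 ± 0.28 at normal nitrogen (limma, adjusted p = 0.00105) and by 1.11 ± 0.28 at low nitrogen (adjusted p = 0.00195). Under median-of-ratios scaling these differences were smaller but still called, at -0.74 (limma, adjusted p = 0.0306) and -0.86 (adjusted p = 0.0120). Guozhen leaf at normal nitrogen went from 161, 162 and 187 FPKM to 84.1, 60.6 and 78.3 FPKM, with a clear gap between the days. In Guizhen leaf the differences were -0.56 ± 0.28 and -0.46 ± 0.28 (limma, adjusted p = 0.0923 and 0.161), and the libraries of the days overlapped. Without day 7 replicate 3 the normal nitrogen difference of Guizhen was called by limma with adjusted p = 0.0432 and a change of -0.75. The difference between the cultivars in this day change was not tested.

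ACO3 was a root gene of day 1 that dropped by day 7. In Guizhen root at normal nitrogen it went from 81.3, 77.3 and 56.5 FPKM to 7.65, 7.75 and 6.79 FPKM. In Guozhen root at normal nitrogen it went from 64.9, 56.5 and 60.0 FPKM to 7.58, 6.68 and 10.7 FPKM. The days were clearly apart in both cultivars. The difference of day 7 minus day 1 was -3.10 ± 0.31 and -2.35 ± 0.31 in Guizhen and -2.74 ± 0.31 and -1.85 ± 0.31 in Guozhen at normal and low nitrogen (limma, adjusted p between 2.85e-07 and 5.93e-05).

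In leaf ACO3 was low, with 2.66 to 20.9 FPKM at day 1 and 2.16 to 6.18 FPKM at day 7. It fell there by 1.31 ± 0.45 in Guizhen at low nitrogen (limma, adjusted p = 0.0179) and by 1.46 ± 0.45 in Guozhen at normal nitrogen (adjusted p = 0.00905). The second of these rests on an uneven trio of 18.3, 2.66 and 20.9 FPKM at day 1, whose lowest library overlapped the day 7 libraries. It was not called without day 1 replicate 1 (-1.09, limma adjusted p = 0.0618), without day 1 replicate 3 (adjusted p = 0.0733) or with only the compared libraries in the fit (adjusted p = 0.103). The remaining leaf differences were -0.99 ± 0.45 in Guizhen at normal nitrogen and -0.42 ± 0.45 in Guozhen at low nitrogen (limma, adjusted p = 0.0667 and 0.433), the first of which was called with only the compared libraries in the fit (adjusted p = 0.000618). ACO1 and ACO3 are neighbours on chromosome 7 with 1 RefSeq entry between them. Whether reads of close family members were split between them in the authors' counting is not stated, so the low ACO3 values beside high ACO1 in day 1 leaves are uncertain.

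ACO5 was read almost wholly in root. In leaf it was listed at 0 in 19 of the 24 libraries and reached at most 0.0491 FPKM, so it failed the filter on low values there and was not tested between leaf groups. In root at day 1 it varied most of the 5 genes, with 10.3, 10.5 and 26.5 FPKM in Guizhen at normal nitrogen and 10.1, 117 and 50.5 FPKM at low nitrogen. Guozhen root of day 1 had 45.1, 31.5 and 62.6 FPKM at normal nitrogen and 58.7, 31.1 and 14.7 FPKM at low nitrogen. By day 7 all 12 root libraries lay between 0.570 and 4.03 FPKM, below the lowest day 1 library at 10.1 FPKM.

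The day difference of ACO5 in root was -2.49 ± 0.62 and -4.17 ± 0.62 in Guizhen and -4.30 ± 0.62 and -3.06 ± 0.62 in Guozhen at normal and low nitrogen (limma, adjusted p between 1.70e-05 and 0.00301). Its SE was the largest of the 5 genes in root, and its day 1 libraries were also the most spread.

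In FPKM, which can be set side by side between genes, ACO4 was the highest of the 5 genes in all 24 root libraries, at both days. ACO1 was the highest in all 12 leaf libraries of day 1, and ACO6 in all 12 leaf libraries of day 7. The leading gene of the leaf thus changed between the days, while that of the root did not. These orders are a description, with no test.

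Ordering the 16 group means of each gene shows how few neighbours differ beyond their spread. For ACO1 the 4 day 1 leaf groups led, from 1610 FPKM in Guizhen at low nitrogen to 665 FPKM in Guozhen at normal nitrogen, and neighbours among them overlapped. The next group down, Guizhen root of day 1 at normal nitrogen with 25.9 FPKM, was clearly apart from them. For ACO6 neighbours among the 4 day 1 leaf groups (491 to 578 FPKM) overlapped, although Guizhen at low nitrogen lay wholly above Guizhen at normal nitrogen. The 4 day 7 leaf groups followed (199 to 383 FPKM), and the 8 root groups came last (3.21 to 10.4 FPKM). For ACO4 all 8 root groups (332 to 512 FPKM) stood above all 8 leaf groups (74.4 to 208 FPKM), with overlap between neighbours on the root side. For ACO3 and ACO5 the 4 day 1 root groups led without overlap to the rest, at 52.4 to 71.7 FPKM and at 15.8 to 59.3 FPKM.

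Most members differed between root and leaf, as did most genes. ACO5 passed the filter through root alone and so had to differ, and it was left out of these counts after its values had been seen. Of the other 4 members, 4 were called in Guizhen at day 1 and normal nitrogen, where 59.5% of all genes were called, and 4 at low nitrogen (58.2% of all genes). At day 7, 3 were called at normal nitrogen (73.2%) and 4 at low nitrogen (71.0%). In Guozhen, 4 were called at day 1 at either nitrogen level (59.2% of all genes at normal and 57.0% at low nitrogen), and 3 at each nitrogen level at day 7 (73.5% and 70.2%). Most genes differed between the organs, so these counts are read against a high background.

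The direction between organs depended on the gene. ACO6 was lower in root in each of the 8 comparisons, by -7.05 ± 0.25 in Guozhen at day 1 and normal nitrogen at one end (limma, adjusted p = 2.68e-23) and -4.84 ± 0.25 in Guizhen at day 7 and normal nitrogen at the other (adjusted p = 5.60e-19). ACO1 was lower in root at day 1, between -6.94 and -4.70 on the log2 scale. At day 7 it was lower in root in Guizhen at low nitrogen (-2.35 ± 0.47, limma adjusted p = 3.19e-05), and the other 3 differences lay between -0.53 and -0.26 and were not called.

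ACO3 was higher in root by 2.18 to 3.32 at day 1 and by 1.03 to 1.89 at day 7. Under median-of-ratios scaling, which moved the median of all genes in these comparisons by -0.08 to -0.46, its day 7 difference was no longer called in Guizhen at normal nitrogen (0.54, limma adjusted p = 0.245), in Guizhen at low nitrogen (0.78, adjusted p = 0.0911) or in Guozhen at normal nitrogen (0.65, adjusted p = 0.15). The Guizhen low nitrogen call also ended without root replicate 1 (0.63, limma adjusted p = 0.175), and the Guozhen normal nitrogen call without root replicate 3 or leaf replicate 1 or 2 (adjusted p between 0.0597 and 0.0672). ACO5 was at or close to 0 in leaf and passed the filter through root alone, so its calls are no test of the organs and no fold is given.

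Between day 1 and day 7 most root members were called, as were between 42.9% and 54.5% of all genes tested. In Guizhen root at normal nitrogen all 5 members were called (45.7% of 20435 genes), 1 higher (21.4% of genes) and 4 lower (24.3%). In Guizhen root at low nitrogen 4 were called (42.9%), 1 higher (20.6%) and 3 lower (22.3%). In Guozhen root 3 were called at normal nitrogen (48.6%), 0 higher (22.7%) and 3 lower (25.9%). At low nitrogen 3 were called as well (54.5%), 0 higher (23.0%) and 3 lower (31.4%). ACO1, ACO3 and ACO5 were called lower in each of these 4 comparisons, and no further member had an unadjusted limma p below 0.05 in Guozhen root.

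All members called between days in leaf fell. In Guizhen leaf 2 of the 4 tested were called at normal nitrogen (59.8% of 19815 genes, 42.4% lower) and 3 at low nitrogen (59.2%, 36.3% lower). In Guozhen leaf all 4 were called at normal nitrogen (61.6%, 48% lower) and 3 at low nitrogen (61.9%, 41.1% lower). In leaf, calls were thus common among all genes too. The excess of falls over all genes depended on the scaling. Of the called genes 61.4% to 78% were lower as deposited and 52.1% to 53.4% under median-of-ratios scaling.

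**Figure D3:**
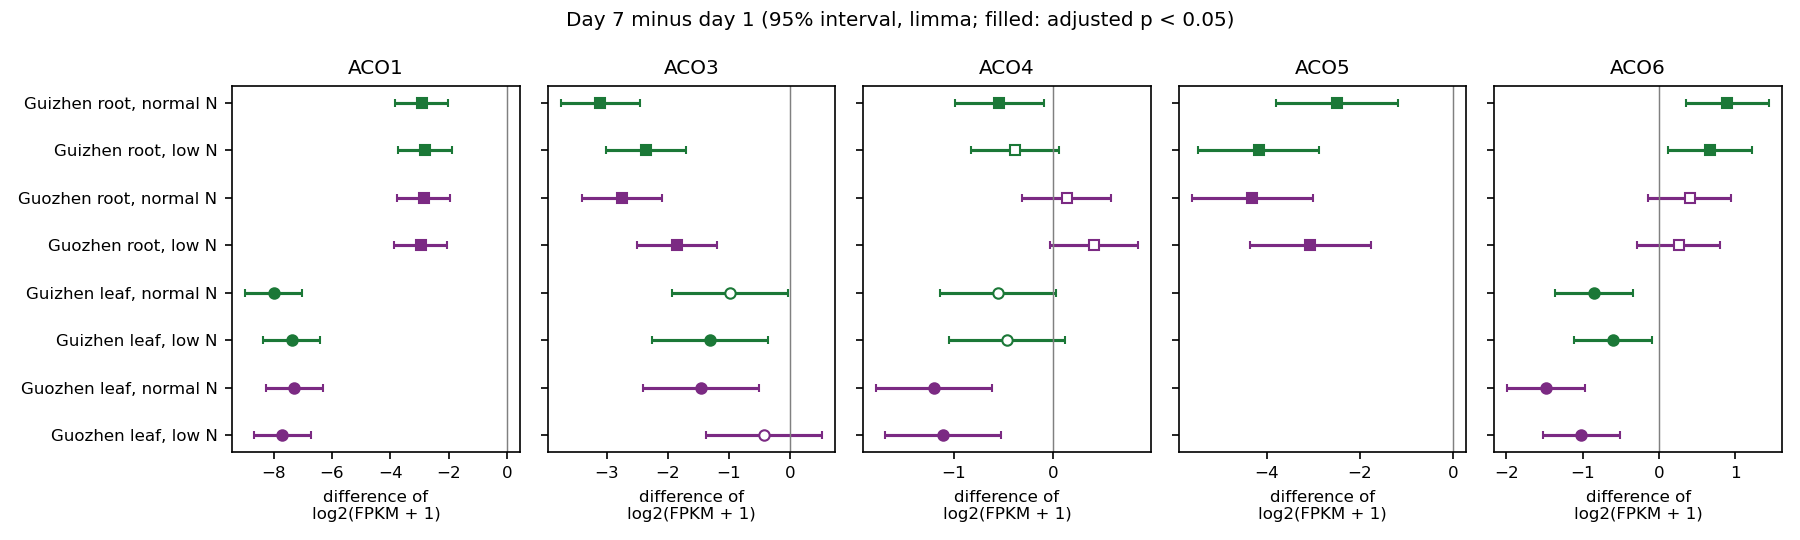
Day 7 minus day 1 for each gene, as the difference of mean log2(FPKM + 1) on the horizontal axis, with 95% intervals from limma. Rows are cultivar, organ and nitrogen level, squares are root and circles leaf, and filled symbols have an adjusted p below 0.05. Horizontal scales differ between panels. ACO1 lies between -2.96 and -2.80 in root and between -8.01 and -7.30 in leaf, and ACO5 was not tested in leaf.

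The day change was then compared between root and leaf within each cultivar and nitrogen level, a test added after the data had been seen. ACO5, near 0 in leaf at both days, restates its root fall here and is left out of these counts. Of the 16 differences of the other 4 genes, 12 were called. The calls came to 3 of 4 in Guizhen at normal nitrogen (51.3% of 22117 genes), 2 at low nitrogen (49.4%), 3 in Guozhen at normal nitrogen (55.9%) and 4 at low nitrogen (51.3%). For ACO1, which fell in both organs, the fall was smaller in root by 4.45 to 5.08 on the log2(FPKM + 1) scale (limma, adjusted p between 9.36e-08 and 7.76e-07). Its group means in root at day 1 were only 3.71 to 4.70 on this scale. In leaf they went from at least 9.37 at day 1 to at most 3.26 at day 7. Even a root fall to 0 FPKM would thus have been smaller, so the ACO1 calls, which are among the 12, are no test. For ACO3 in Guizhen at normal nitrogen, the root mean went from 6.17 at day 1 to 3.07 at day 7. The leaf mean at day 1 was only 3.03, less than that root fall. The direction of this ACO3 call, also among the 12, was thus fixed and it is no test either.

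Few nitrogen differences of the 5 genes were called. Of 36 tests of low against normal nitrogen over 8 comparisons, 1 was called by limma, and 5 had an unadjusted p below 0.05. Among all genes, 876 to 7933 of 20435 had such a p in the root comparisons and 2034 to 6636 of 19815 in leaf. At day 1 no member was called in Guizhen root, Guozhen root, Guizhen leaf or Guozhen leaf, where 0.00979%, 0.0391%, 0.116% and 0.0606% of all genes were called. At day 7 no member was called in Guizhen root (7.92% of all genes), Guizhen leaf (16.6%) or Guozhen leaf (17.7%), and 1 was called in Guozhen root (27.6%). Read against these shares, the member counts show nothing particular to these genes.

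The single call was ACO3 in Guozhen root at day 7. It stood at 7.58, 6.68 and 10.7 FPKM at normal nitrogen and at 19.3, 15.5 and 15.0 FPKM at low nitrogen, so the groups did not overlap. The rise was 0.93 ± 0.31 (limma, adjusted p = 0.0312). It was no longer called without normal nitrogen replicate 1 (0.89, limma adjusted p = 0.0766) or replicate 2 (0.81, adjusted p = 0.113), or without low nitrogen replicate 1 (0.83, adjusted p = 0.109) or replicate 2 (0.98, adjusted p = 0.0549). In Guizhen root of day 7, ACO3 stood at 7.65, 7.75 and 6.79 FPKM at normal nitrogen and at 19.1, 6.08 and 6.07 FPKM at low nitrogen, where 1 library was high and the others were not. The difference there was 0.26 ± 0.31 (limma, adjusted p = 0.693), and the responses of the cultivars were not shown to differ (0.68 ± 0.44, adjusted p = 0.448). Nor was the response in Guozhen root shown to differ between day 7 and day 1 (0.89 ± 0.44, limma adjusted p = 0.185), although it was with only the compared libraries in the fit (adjusted p = 0.0448).

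Several members not called had differences whose 95% interval left out 0. In Guozhen root of day 7, ACO4 stood at 396, 308 and 380 FPKM at normal and 635, 443 and 459 FPKM at low nitrogen, with no overlap (0.49 ± 0.21, limma adjusted p = 0.0910). In Guizhen leaf of day 7, ACO1 was 1.10 ± 0.47 higher at low nitrogen (limma, adjusted p = 0.106), with an interval from 0.13 to 2.08. Without normal nitrogen replicate 2, which at 8.32 FPKM overlapped the low nitrogen libraries, that difference was called (1.64, limma adjusted p = 0.0348). ACO6 was 0.53 ± 0.24 higher at low nitrogen in Guozhen leaf of day 7 (limma, adjusted p = 0.133). The median of all genes was itself 0.16 in Guizhen and 0.14 in Guozhen leaf of day 7. Under median-of-ratios scaling the ACO1 difference was 0.97 (limma, adjusted p = 0.183) and the ACO6 difference 0.37 (adjusted p = 0.320). In Guizhen root of day 1, ACO5 differed by 1.41 ± 0.62 (limma, adjusted p = 0.522), with overlapping libraries.

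In Guozhen leaf of day 1, ACO3 had 18.3, 2.66 and 20.9 FPKM at normal nitrogen and 7.65, 5.47 and 3.52 FPKM at low nitrogen. The difference of -0.87 ± 0.45 was not called by limma (adjusted p = 0.517), but it was without normal nitrogen replicate 2 (-1.70, adjusted p = 0.0247). The intervals show what nitrogen effects could have been missed. For ACO4 they lay between -0.59 and 0.93 over the 8 comparisons and for ACO6 between -0.56 and 1.04, whereas for ACO5 in root they reached from -1.85 to 2.71.

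**Figure D4:**
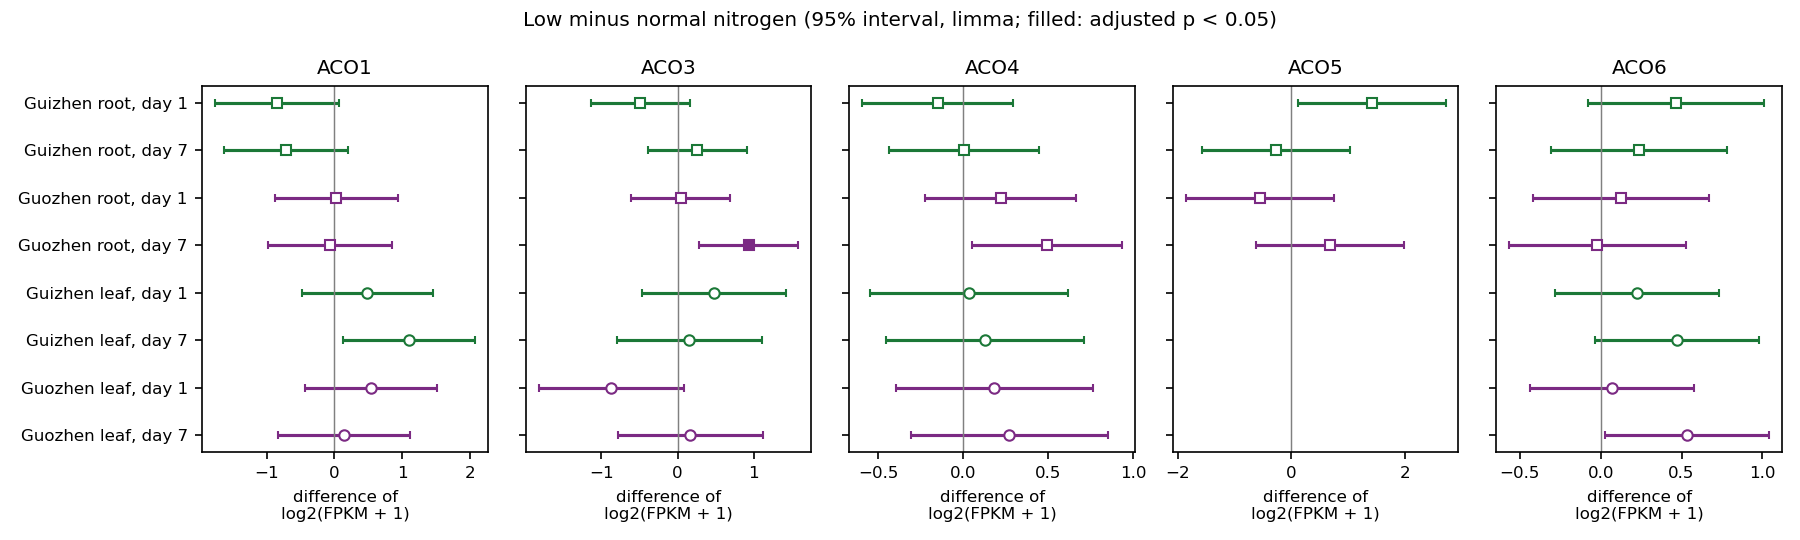
Low minus normal nitrogen for each gene, as the difference of mean log2(FPKM + 1) on the horizontal axis, with 95% intervals from limma. Rows are cultivar, organ and day, squares are root and circles leaf, and the filled symbol has an adjusted p below 0.05. Horizontal scales differ between panels. ACO3 in Guozhen root of day 7 is the filled symbol, at 0.93.

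The difference of the nitrogen response between cultivars was called for no member in root at day 1 (0.0734% of all genes called), root at day 7 (0.387%), leaf at day 1 (0.0858%) or leaf at day 7 (0.00%). Of these 18 limma tests, 2 had an unadjusted p below 0.05. Among all genes 1581 and 3517 of 20435 had such a p in root at day 1 and day 7, and 741 and 1055 of 19815 in leaf. The difference of the response between days was called for no member in Guizhen root (0.935% of all genes), Guozhen root (13.3%), Guizhen leaf (1.59%) or Guozhen leaf (4.84%). Of those 18 limma tests, 0 had an unadjusted p below 0.05. Among all genes 2900 and 5940 of 20435 had such a p in Guizhen and Guozhen root, and 4305 and 4770 of 19815 in leaf. Without Guozhen leaf replicate 2 of day 1 at normal nitrogen, the ACO3 response in leaf was called as different between cultivars at day 1 (-2.17, limma adjusted p = 0.0366) and between days in Guozhen (1.87, adjusted p = 0.0317).

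Between the cultivars, 1 of 36 differences was called. That call was ACO6 in root of day 7 at low nitrogen, with 12.4, 7.54 and 11.3 FPKM in Guizhen and 5.63, 5.56 and 2.50 FPKM in Guozhen. The difference of Guozhen minus Guizhen was -1.07 ± 0.26 (limma, adjusted p = 0.0125), where 12.7% of all genes were called. It was not called with only the compared libraries in the fit (adjusted p = 0.113), without Guizhen replicate 1 (-0.94, limma adjusted p = 0.0633) or without Guozhen replicate 3 (-0.77, adjusted p = 0.0540). At normal nitrogen the same groups had 9.30, 7.33 and 9.08 FPKM in Guizhen and 4.25, 3.63 and 5.53 FPKM in Guozhen, apart but not called (-0.81 ± 0.26, limma adjusted p = 0.185).

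No member was called between cultivars in root at day 1 and normal nitrogen (1.56% of all genes), day 1 and low nitrogen (0.763%) or day 7 and normal nitrogen (0.925%). Nor was any called in leaf at day 1 at normal nitrogen (2.92%) or low nitrogen (1.61%), or at day 7 at normal nitrogen (0.691%) or low nitrogen (1.64%). Of the tests between cultivars, 8 of 20 in root and 2 of 16 in leaf had an unadjusted limma p below 0.05. Among all genes, 1512 to 5783 of 20435 had such a p in the root comparisons, the most at day 7 and low nitrogen. In the leaf comparisons 1458 to 3321 of 19815 had one. Under median-of-ratios scaling ACO4 was also called, higher in Guozhen, in root of day 7 at low nitrogen (0.66, limma adjusted p = 0.0406, against 0.60 ± 0.21 and 0.0670 unscaled). Single libraries decided further values. Without Guozhen leaf replicate 2 of day 1 at normal nitrogen, ACO3 was higher in Guozhen leaf (1.33, limma adjusted p = 0.0192). Without Guizhen root replicate 1 of day 7 at low nitrogen, ACO3 was higher in Guozhen root (1.31, limma adjusted p = 0.00402). Without Guozhen leaf replicate 3 of day 1 at low nitrogen, ACO4 was higher in Guozhen leaf (1.07, limma adjusted p = 0.0350).

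Likeness was measured as the Pearson correlation of mean log2(FPKM + 1) over the 16 groups, in which the points share organ, day and libraries, and is given as a description. Among the members, ACO3 and ACO5 were the most alike (r = 0.93), while ACO4 and ACO6 ran opposite to each other over all groups (-0.88), which was the organ contrast, with 0.86 over the 8 leaf groups and -0.32 over the 8 root groups. ACO1 and ACO3 had an r of 0.06 over all groups, but 0.96 over the 8 root groups and 0.89 over the 8 leaf groups. Among 14574 other loci with a mean of at least 5 FPKM, the most like ACO1 were Solyc02g082920 (0.99) and Solyc08g008170 (0.99), and the most like ACO6 were Solyc05g051750 (0.99) and Solyc08g044260 (0.99). ACO4 was most like Solyc12g088680 (0.98) and Solyc07g052470 (0.98). ACO3 was most like Solyc01g108340 (0.98) and Solyc02g084810 (0.97), and ACO5 most like Solyc12g014630 (0.99) and Solyc12g014620 (0.99). With 16 points set mainly by organ and day, many loci reach values of this size, and no function is read from them.

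The other genes of the ethylene pathway were read from a list of 32 loci, comprising 4 SAM synthetases, 8 ACC synthases (ACS), 7 receptors, 11 signalling genes and 2 ethylene-responsive genes. Of these, 29 were tested in root and 27 in leaf. Names of list loci were preset by locus number, and for 25 of the 32 the name was found in RefSeq on the same chromosome. The SAM synthetases, EBF2, GR and E8 had no such match.

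Between days, most loci of the pathway list were lower at day 7 in leaf. There 20, 19, 21 and 22 of the 27 loci were called lower at day 7 and 1 was called higher, in Guizhen at normal and low nitrogen and in Guozhen at normal and low nitrogen. Among all genes 42.4%, 36.3%, 48% and 41.1% were called lower in these comparisons. Under median-of-ratios scaling 19, 16, 18 and 19 loci of the list were called lower, against 29.3%, 31.1%, 28.8% and 31.7% of all genes. The median difference of the list was -1.10, -0.78, -1.10 and -0.96, against -0.29, -0.16, -0.40 and -0.25 over all genes tested. ACS2, the ACC synthase known from ripening fruit, went from 4.89 to 59.6 FPKM in day 1 leaves to at most 0.0476 FPKM in day 7 leaves. In root it went from 2.98 to 6.18 FPKM at day 1 to 0.121 to 0.453 FPKM at day 7. It was chosen after its values had been seen and passed the filter through day 1 alone, so its calls are no test. In leaf, ACS1B and ETR6 also passed through day 1 alone, with at most 0.770 and 0.943 FPKM at day 7. ACS2, ACS1B and ETR6 are all in the leaf counts and medians above, where their calls are no test.

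In root the list was mixed, with 5, 4, 7 and 6 of 29 loci called higher and 13, 9, 12 and 12 called lower at day 7 in the same order of settings. Among all genes 21.4%, 20.6%, 22.7% and 23.0% were called higher and 24.3%, 22.3%, 25.9% and 31.4% lower. The higher counts of the list thus lie near or below the background. In root, ACS2 and ETR6 passed the filter through day 1 alone and ACS4 through day 7 alone, so their calls in these counts are no test. ACS1A, another ACC synthase chosen after its values were seen, went in root from 5.86 to 20.0 FPKM at day 1 to 23.9 to 44.1 FPKM at day 7, while in leaf it went from 6.32 to 26.8 FPKM to 0.638 to 2.89 FPKM. It was called in 7 of these 8 comparisons, the exception being Guizhen root at normal nitrogen, where 0.53 was called with only the compared libraries in the fit (limma, adjusted p = 0.00888).

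At day 1 no locus of the list was called between nitrogen levels in any organ or cultivar by limma. At day 7, 5 of 29 loci were higher and 0 lower at low nitrogen in Guizhen root, and 6 were higher and 3 lower in Guozhen root, where 7.92% and 27.6% of all genes were called. The Guozhen root count lies near that background. In leaf 8 of 27 were higher and 1 lower in Guizhen, and 4 were higher and 1 lower in Guozhen, where 16.6% and 17.7% of all genes were called, so the Guozhen leaf count also lies near the background. Under median-of-ratios scaling the root counts were the same, but in leaf 1 locus was higher and 1 lower in Guizhen, and 0 were higher and 1 lower in Guozhen. That scaling also turned the leaf split over all genes, from 29.6% and 30.8% lower among the called genes to 61.6% and 60.1% in Guizhen and Guozhen. The medians of the list were 0.16, 0.02, 0.45 and 0.28 in that order, against 0, -0.03, 0.16 and 0.14 over all genes tested.

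In root the called loci with the largest differences belonged to the steps before ACC oxidase. ACS1B went from 12.6 to 30.6 FPKM in Guizhen root (1.20 ± 0.23, limma adjusted p = 0.00389) and from 13.3 to 34.7 FPKM in Guozhen root (1.31 ± 0.23, adjusted p = 0.000437). The SAM synthetase locus Solyc01g101060 went from 1026 ± 130 to 2494 ± 627 FPKM (SD, 3 libraries each) in Guizhen root (1.26 ± 0.24, limma adjusted p = 0.00463), a call lost with only the compared libraries in the fit (adjusted p = 0.104). ACS4 went from 1.93 to 8.68 FPKM in Guozhen root (1.72 ± 0.33, limma adjusted p = 0.000986). In these same root libraries ACO3 in Guozhen was the single call among the 5 ACC oxidases.

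In leaf at day 7 the SAM synthetase locus Solyc12g099000 was lower at low nitrogen, from 70.3 to 37.3 FPKM in Guizhen (-0.95 ± 0.24, limma adjusted p = 0.0166) and from 50.9 to 23.9 FPKM in Guozhen (-1.08 ± 0.24, adjusted p = 0.00660). The ethylene receptor ETR3 was higher, from 5.81 to 11.5 FPKM in Guizhen (0.87 ± 0.24, limma adjusted p = 0.0202) and from 5.78 to 10.1 FPKM in Guozhen (0.70 ± 0.24, adjusted p = 0.0461). Of these, the Solyc12g099000 call in Guizhen and both ETR3 calls ended without 1 of several libraries, with limma adjusted p up to 0.0995 for the first, 0.10 for ETR3 in Guizhen and 0.273 for ETR3 in Guozhen. With only the compared libraries in the fit, the Solyc12g099000 call in Guizhen (limma, adjusted p = 0.0600) and the ETR3 call in Guozhen (adjusted p = 0.142) were lost. The latter was also lost with no filter (limma, adjusted p = 0.0650) and under median-of-ratios scaling (adjusted p = 0.0988).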

How the data were processed

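RNA-seq of 48 tomato libraries was read from a table of FPKM values per gene that the authors deposited. HISAT2 and StringTie are named in the submitters' processing notes; versions, genome build, annotation, strand setting and the handling of reads shared by paralogs are not given in the sources used here. FPKM are relative to each library's total, and depth could be set only relative to other libraries.

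A gene entered a test where 3 or more libraries held it at 1 FPKM or above. Tests ran on log2(FPKM + 1) in R 4.3.3 using limma 3.58.1, with a mean per group and a mean-dependent prior on the spread. Root and leaf had a fit each (24 libraries), and organs were compared in a fit of all 48. Benjamini-Hochberg adjustment ran over all genes of a comparison. There were 40 comparisons, and 4 were added after the data were seen. The limma step was also tried on data simulated from the means and spread of these libraries. Nitrogen differences were set in Guizhen at day 7 for 100 genes of each size, picked only from genes of higher mean level. The limma step found 75% (root) and 66% (leaf) of those of 1 on the log2 scale, and 93% and 95% of those of 2. These shares need not hold for genes at low levels, as several members were at day 7. Of 179 calls in root and 168 in leaf, 11 and 7 were false. Summaries and plots used matplotlib 3.10.9, numpy 2.4.6 and pandas 2.3.3 under Python 3.11.15.

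Alternatives were a pseudocount of 0.1, no filter, median-of-ratios scaling, only the libraries compared, the replicate number as a block and each library left out. The members, lists and comparisons were chosen with earlier results of these data known. Named beside the members were the 2 loci with a mean of at least 5 FPKM most correlated with each, and the 2 called pathway loci with the largest change in each day 7 nitrogen comparison. The preset loci were matched by name to RefSeq SLM_r2.1, which shares no locus numbers with the table. No sequences are shown, and 1 locus of the family is not reported here.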

Additional observations from a re-analysis of the deposited data

Results flagged for a closer look

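The day change was called as different between root and leaf for 16 of the 20 combinations of gene, cultivar and nitrogen level (limma, adjusted p from 9.36e-08 to 0.0343). Without ACO5, which passed the filter through root alone, 12 of 16 were called. Those 12 still hold the ACO1 calls and the ACO3 call in Guizhen at normal nitrogen, both discussed below. Among all 22117 genes tested, 49.4% to 55.9% were called in these comparisons, so the counts are read against a high background. Values are the root change minus the leaf change on the log2(FPKM + 1) scale, so a positive value means a smaller fall or a larger rise in root. These comparisons were added after the data were seen.

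In Guizhen at normal nitrogen the difference was 5.08 for ACO1, -2.11 for ACO3, -2.46 for ACO5 and 1.75 for ACO6. In Guizhen at low nitrogen it was 4.59 for ACO1, -4.15 for ACO5 and 1.27 for ACO6. In Guozhen at normal nitrogen it was 4.45 for ACO1, 1.33 for ACO4, -4.29 for ACO5 and 1.88 for ACO6. In Guozhen at low nitrogen it was 4.75 for ACO1, -1.43 for ACO3, 1.51 for ACO4, -3.04 for ACO5 and 1.28 for ACO6. All genes leaned to positive values here, with medians of 0.17 to 0.35. Under median-of-ratios scaling the ACO6 differences were 0.99 to 1.37, and those of ACO4 in Guozhen were 0.84 and 1.28, all still called. The ACO3 values moved further down, to -2.42 in Guizhen at normal nitrogen and -1.60 in Guozhen at low nitrogen.

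ACO5 was listed at or near 0 in leaf at both days, so its values restate the root fall and are no test of a difference between organs. For ACO1, the group means of log2(FPKM + 1) in root at day 1 were 3.71 to 4.70, less than its fall in leaf. A smaller root fall was thus fixed in advance, and the ACO1 calls are no test either. For ACO3 in Guizhen at normal nitrogen, the leaf mean at day 1 was 3.03, less than the root fall from 6.17 to 3.07. The direction of that call was fixed in the same way, so it is no test. The ACO3 difference in Guizhen at low nitrogen was called only without root replicate 1 of day 7 (-1.54, limma adjusted p = 0.0214). The ACO3 difference in Guozhen at low nitrogen was not called with a pseudocount of 0.1 (limma, adjusted p = 0.0672) or without any 1 of 7 of the 12 libraries compared. That in Guozhen at normal nitrogen, not called with all libraries (-1.29, adjusted p = 0.0529), was called under median-of-ratios scaling (-1.65, adjusted p = 0.0149) and without any 1 of 5 libraries.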

How the results depend on the processing

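No called result changed sign, while some differences that were not called did. Of 82 called member results, 68 were called under every alternative tried, 11 lost the call in at least 1 fit with a library left out and 11 under at least 1 other alternative. Of 122 not called, 12 and 5 gained one in the same way. The 82 hold calls that are no test, those of ACO5 between organs and those of ACO5 and ACO1 in the day change between organs. The ACO3 call of that day change in Guizhen at normal nitrogen is of the same kind. Without ACO5, the 37 calls between organs are 29 and the 16 of that day change are 12. The count of 68 was not made without these calls. Leaving out 1 library moved the members called for nitrogen between 0 and 1 in root (1 with all libraries) and between 0 and 1 in leaf (0 with all). It moved the members called between cultivars between 0 and 2 in root (1 with all) and between 0 and 1 in leaf (0 with all). It moved those called for the cultivar difference and for the day difference of the nitrogen response between 0 and 1 each (0 with all). Median-of-ratios scaling gave 2 members called between cultivars in root, and only the libraries compared gave 0. Only the libraries compared gave 1 member called for the day difference of the nitrogen response. The causes were not tested. Same-numbered libraries did not deviate together (mean correlation -0.012 in root and -0.013 in leaf, 84 pairs each), and the replicate block left 15 member calls between days in root, 12 in leaf and 37 between organs (29 without ACO5), with 0 calls lost and 0 gained. Differences of genes near 1 FPKM depend on the pseudocount, and read numbers are not given in the sources used here, so no counting error could be set.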
